A study of Mus musculus with 9 samples.

Results

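Interleukin receptors are built from surface chains that each recognise a cytokine or pass its signal on. The genes described here are the 34 mouse genes with an interleukin receptor symbol in both deposited tables, out of 36442 genes in the epidermal table and 24016 gene symbols in the regulatory T cell table. They were chosen by name: 42 symbols starting with Il, a number and then r or st occurred in both tables, and 8 of these (Il7r, Il2ra, Il1rl1, Il1rn, Il1r1, Il1r2, Il1rap and Il18r1) were left out by the rule. Il28ra, the interferon lambda receptor chain, carried such a symbol in the epidermal table alone and is not counted.

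RNA sequencing was done on sorted cells of mice in which Mi2 was altered and of their comparison groups, to ask how keratinocytes act on regulatory T cells (Tregs, the T cells that restrain immune responses and express Foxp3). Keratinocytes sorted from adult skin epidermis formed 2 groups, with 2 Mi2 libraries and 2 WT libraries. Tregs sorted from skin-draining lymph nodes formed 3 groups, with 1 TSLPR-negative library (TSLPR– Treg_Mi2) and 2 TSLPR WT libraries, both of Mi2 mice, and 2 Ctl libraries. Crlf2 encodes TSLPR, the chain that binds the cytokine TSLP, and Chd4 encodes Mi-2β, an ATPase that remodels chromatin. In the file columns the Mi2 libraries are named knock-outs and the Tregs skin Tregs, whereas the sample labels give lymph nodes. The column of the TSLPR-negative library (TMDKO) reads as a double knock-out. It was matched to that sample because no other sample is labelled as one. Neither the driver of the Mi2 alteration nor the age or sex of the mice is given in the sources used here. The labels do not say that replicates came from different mice, so p-values measure the spread between these libraries, which may be technical. What holds for the TSLPR-negative group rests on 1 library.

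Most of these chains work in pairs or triplets. The common gamma chain Il2rg joins the private chains for IL-2, IL-4, IL-9, IL-15 and IL-21, and gp130, encoded by Il6st, joins those for IL-6, IL-11 and IL-27. Class II chains (Il10rb, Il20ra, Il20rb, Il22ra1) combine in several ways into receptors for IL-10, IL-20, IL-22 and IL-24, and through them keratinocytes respond to cytokines of immune cells. These families signal through Janus kinases (JAK) and STAT transcription factors, whereas IL-17 and IL-1 family receptors use adaptor proteins that lead to NF-kappaB. In Tregs, IL-2 acting through Il2ra, Il2rb and Il2rg sustains Foxp3 and survival through STAT5.

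The targeted genes were checked first. Chd4 measured 734 and 1207 normalized reads in the Mi2 libraries, against 1607 and 1942 in the WT libraries of epidermis (log2 change −0.91, SE 0.272, limma adjusted p = 0.0456), so its transcript was lower and not absent. Crlf2 measured 51.5 in the TSLPR-negative library, against 816 and 715 in TSLPR WT Mi2 Tregs, and 395 and 742 in Ctl Tregs. All 5 keratinocyte markers passed a mean of 10 in epidermis and all 6 Treg markers did so in Tregs, where Foxp3 ranged from 11159 to 15371 and 3 of 5 keratinocyte markers were at 0 in every library. Among the keratinocyte markers the suprabasal keratin Krt1 was called lower in Mi2 epidermis, at 4503 and 8896, against 21522 and 18749 in WT epidermis (log2 change −1.67, SE 0.367, adjusted p = 0.0175, limma). Krt10, its partner, measured 4945 and 17707 in Mi2, against 28432 and 28167 in WT (adjusted p = 0.0717), and the basal keratin Krt14 measured 79944 and 50895 in Mi2, against 35020 and 32292 in WT (adjusted p = 0.136). The part of this shift in the epidermal receptor values was not tested. Depth was 5682391 to 8913804 reads in epidermis and 21849381 to 32238992 in Tregs. Mi2 epidermis replicate 1 stood apart in its share of reads from mitochondrially encoded genes, 29.7%, with 15.5% in the other Mi2 library, against 13.8% and 12.9% in the WT libraries.

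The receptor chains divided by tissue. A mean of at least 10 normalized reads, the level needed to enter a test, was reached in both tissues by 15 of the 34 genes, in epidermis only by 7, in Tregs only by 9, and in neither by 3. The 7 chains above it in epidermis only were Il20ra, Il22ra1, Il22ra2, Il17rc, Il17re, Il31ra and Il11ra2. The 9 above it in Tregs only were Il2rb, Il9r, Il21r, Il10ra, Il12rb1, Il23r, Il18rap, Il27ra and Il5ra. The neuronal chains Il1rapl1 and Il1rapl2 were at 0 in all 9 libraries. Il13ra2, a decoy receptor for IL-13, measured 2.65 and 24.5 in the Mi2 libraries, against 0.992 and 2.90 in the WT libraries, and was at 0 in Tregs. Levels are compared between tissues only in this coarse way, since the tables were normalized separately.

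Levels between genes were compared per kilobase of exon. In epidermis Il13ra1, an IL-13 receptor chain, came first at a mean of 456 normalized reads per kilobase over the 4 libraries. It was followed by Il20rb at 348, Il17rc, a receptor chain for IL-17A and IL-17F, at 333, Il12rb2 at 240.4 and Il20ra at 177. Il11ra2 had no exon length and is not in this order. The order among neighbours was loose: the 4 libraries spanned 157 to 455 for Il20rb and 136 to 479 for Il12rb2, so these ranges overlap. In Tregs Il2rb, the IL-2 and IL-15 receptor beta chain, averaged 9433 normalized reads per kilobase and Il2rg 7826, with ranges that overlap. All 5 libraries of both genes lay above every library of the next chains, Il27ra at a mean of 1639 and Il21r at 1607. Il6ra, Il6st, Il17ra and Il4ra followed between 1291 and 1134, and did not differ beyond their spread over libraries.

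Promoter sequence was matched for 27 of the 34 genes, as windows of 300 bases from 250 before to 50 after a transcription start (RefSeq, GRCm38.p6). The 6 windows below belong to the chains on which the comparisons turn: the pair with the largest fitted falls in Mi2 epidermis (Il20ra and Il17rb), a chain called in both tissues (Il3ra), the chain with the smallest p in TSLPR WT Mi2 against Ctl Tregs (Il9r), and shared chains that fell there (Il4ra and Il6st). Capitals mark matches to TGANTCA (an AP-1 motif) or to TTCNNNNGAA (a STAT motif with a spacer of 4 bases). TTCNNNGAA (a STAT motif with a spacer of 3) and CACGTG (an E-box) were searched too and matched in none of these 6. The letters of each motif read as the same pattern on the other strand.
Il20ra, chr10:19712337-19712636, plus strand: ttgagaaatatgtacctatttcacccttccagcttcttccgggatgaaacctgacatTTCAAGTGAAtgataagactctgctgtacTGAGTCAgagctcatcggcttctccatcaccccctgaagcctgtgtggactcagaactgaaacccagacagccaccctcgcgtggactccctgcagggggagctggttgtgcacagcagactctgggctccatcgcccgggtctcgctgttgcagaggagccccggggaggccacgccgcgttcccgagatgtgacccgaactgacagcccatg
Il17rb, chr14:30008847-30009146, minus strand: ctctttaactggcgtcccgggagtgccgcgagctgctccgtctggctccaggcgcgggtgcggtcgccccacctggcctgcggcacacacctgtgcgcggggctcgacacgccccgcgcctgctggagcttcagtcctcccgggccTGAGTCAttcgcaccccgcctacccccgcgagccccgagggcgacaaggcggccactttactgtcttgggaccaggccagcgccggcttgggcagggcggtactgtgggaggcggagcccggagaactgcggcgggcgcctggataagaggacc
Il3ra, chr14:14346245-14346544, plus strand: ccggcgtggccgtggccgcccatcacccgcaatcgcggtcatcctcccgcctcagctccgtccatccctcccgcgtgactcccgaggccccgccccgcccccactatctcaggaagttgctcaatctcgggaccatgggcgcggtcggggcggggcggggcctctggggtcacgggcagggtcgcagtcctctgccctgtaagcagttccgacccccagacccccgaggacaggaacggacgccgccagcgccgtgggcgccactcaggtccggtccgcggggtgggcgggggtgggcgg
Il9r, chr11:32200230-32200529, minus strand: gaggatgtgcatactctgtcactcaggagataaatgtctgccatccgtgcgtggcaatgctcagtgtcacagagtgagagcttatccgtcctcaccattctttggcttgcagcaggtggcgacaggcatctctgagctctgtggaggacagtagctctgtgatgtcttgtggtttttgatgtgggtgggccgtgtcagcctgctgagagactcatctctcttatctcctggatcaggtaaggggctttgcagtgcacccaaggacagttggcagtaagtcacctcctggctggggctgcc
Il4ra, chr7:125552021-125552320, plus strand: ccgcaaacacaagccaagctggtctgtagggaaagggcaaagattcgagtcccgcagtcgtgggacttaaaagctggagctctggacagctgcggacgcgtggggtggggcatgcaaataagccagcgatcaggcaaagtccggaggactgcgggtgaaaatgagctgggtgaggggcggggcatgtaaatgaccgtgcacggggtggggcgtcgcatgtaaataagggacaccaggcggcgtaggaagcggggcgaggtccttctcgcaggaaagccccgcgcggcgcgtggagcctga
Il6st, chr13:112463820-112464119, plus strand: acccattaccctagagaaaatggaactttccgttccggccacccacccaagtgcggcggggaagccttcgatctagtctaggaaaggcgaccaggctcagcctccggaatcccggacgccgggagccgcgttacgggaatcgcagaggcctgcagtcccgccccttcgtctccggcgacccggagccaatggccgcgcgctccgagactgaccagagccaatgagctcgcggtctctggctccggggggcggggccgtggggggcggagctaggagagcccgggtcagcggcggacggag

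In the Il20ra window TGAGTCA lay at bases −164 to −158 from the start and TTCAAGTGAA at −193 to −184. In that of Il17rb TGAGTCA lay at −104 to −98. Among the other chains called below, Il22ra1 held TGAATCA at −222, Il18rap held TTCATCAGAA at −167 and Il6ra held CACGTG at −24. TGANTCA occurred in 6 of the 27 genes, against 8.97% of the 27025 genes with a window. TTCNNNGAA occurred in 2 of the 27, against 9.55% of all genes. TTCNNNNGAA occurred in 3, against 8.01%, and CACGTG in 1, against 8.09%. No match overlapped another. A match describes letters and is not evidence of binding.

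The windows also differed in CpG dinucleotides, for which the median over all 32851 windows was 7 and the quartiles were 3 and 20. Il3ra held 35, Il6st 33, Il17rb 32, Il13ra1 28, and Il4ra and Il6ra 25 each, all above the upper quartile. Il9r held 5, Il18rap 4, Il2rg 3, Il23r 2 and Il20rb 1. Il20ra, with 13, and Il22ra1, with 11, lay in between.

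The first comparison asks which receptor chains differ in Mi2 keratinocytes. Il20ra, which pairs with Il20rb into a receptor for IL-19, IL-20 and IL-24, and Il17rb, the chain that binds IL-25, fell, as did Il6ra and Il11ra2, while Il2rg, Il3ra and Il22ra1 rose. Of the 34 genes, 22 had a mean of at least 10 and were tested. Of these, 7 were called at a limma adjusted p under 0.05, 3 of them higher and 4 lower in Mi2 (31.8% of those tested). Over all 14461 epidermal genes tested 28.2% were called, 2185 higher and 1900 lower, so the share among receptor chains was near that of all genes. With mitochondrially encoded genes left out and each library rescaled to its remaining reads, the split of all genes was 1522 higher and 2755 lower. The median log2 change of the 22 was −0.090, beside −0.029 over all genes.

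**Figure D1:**
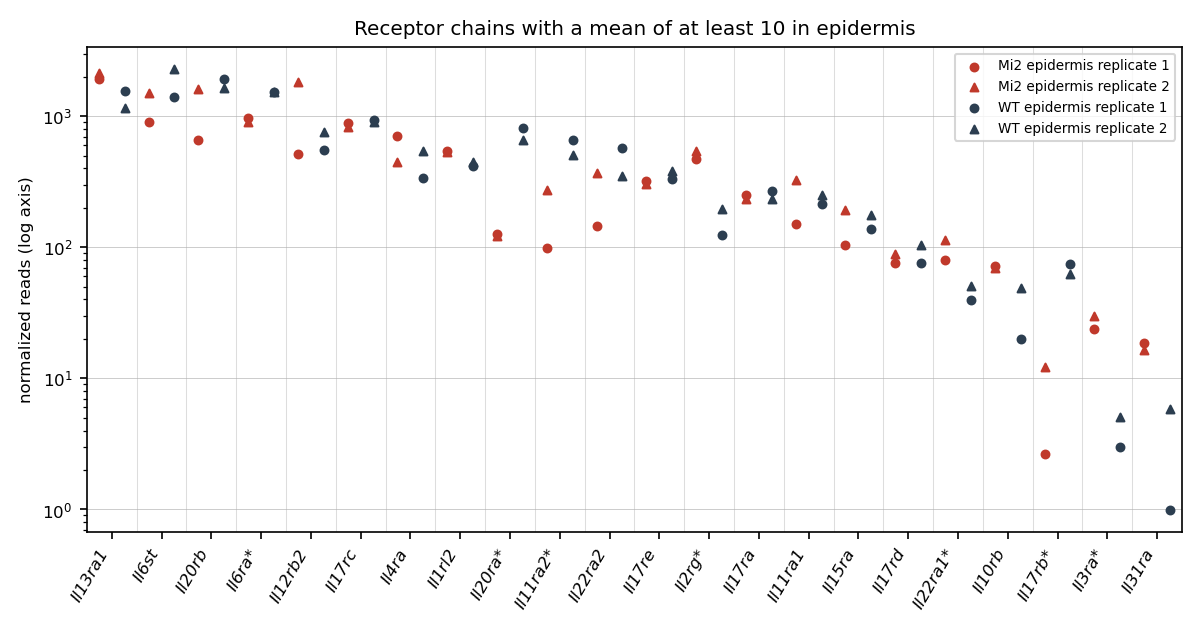
Normalized reads of the 22 tested receptor chains in each Mi2 library (left of each pair) and each WT library (right), on a log axis, ordered by mean level, with an asterisk at the 7 called chains. The Mi2 points of Il20ra, at 126 and 121, lie below both WT points, and those of Il2rg, at 468 and 544, lie above both.

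Among class II chains, Il20ra (chr10:19432393-19479859, mm9, plus strand) measured 126 and 121 in Mi2 epidermis, against 816 and 656 in WT epidermis. Both Mi2 libraries lay well below both WT libraries and close to each other (log2 change −2.56, SE 0.210, adjusted p = 0.000884, limma). Its partner Il20rb measured 661 and 1617 in Mi2, against 1914 and 1657 in WT, with Mi2 replicate 1 apart from the other libraries (adjusted p = 0.169). Il22ra1, which joins Il10rb in the IL-22 receptor and Il20rb in another receptor for IL-20 and IL-24, measured 79.6 and 113 in Mi2, against 39.7 and 50.8 in WT. The groups did not overlap, and the rise was close to the threshold (log2 change 1.06, SE 0.322, adjusted p = 0.0471). Il10rb, the chain shared by IL-10, IL-22 and interferon lambda receptors, measured 71.6 and 69.5 in Mi2, against 19.8 and 49.4 in WT. Its groups did not overlap either, and it was not called (adjusted p = 0.102). Il22ra2, a soluble protein that binds IL-22, measured 145 and 366 in Mi2, against 574 and 351 in WT, and the groups overlapped. Of the 5 class II chains tested, then, 1 rose, 1 fell and 3 were not called (40% called, beside 28.2% of all genes).

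In the IL-17 receptor family, only Il17rb was called of the 5 chains tested (20%, beside 28.2% of all genes). Il17rb (chr14:30809354-30822082, mm9, minus strand) measured 2.65 and 12.3 in Mi2, against 74.4 and 62.4 in WT (log2 change −3.31, SE 0.645, adjusted p = 0.0120). Both Mi2 libraries were far below the WT libraries, and the log2 change was −2.38 without Mi2 replicate 1 and −4.24 without Mi2 replicate 2. The other chains were nearly level between groups. Il17ra, shared by the receptors of this family, measured 249 and 234 in Mi2, against 268 and 232 in WT. Il17rc measured 884 and 828 in Mi2, against 935 and 910 in WT. For Il17rc the 95% interval of the log2 change ran from −0.53 to 0.32 and for Il17ra from −0.53 to 0.44. Il17re, the IL-17C receptor chain, and Il17rd were not called, and their log2 changes were −0.19 and −0.12.

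In the common gamma chain family, Il2rg (chrX:98459726-98463545, mm9, minus strand) measured 468 and 544 in Mi2 epidermis, against 125 and 195 in WT epidermis. The Mi2 libraries lay above both WT libraries (log2 change 1.69, SE 0.263, adjusted p = 0.00596). Il4ra, the chain shared by IL-4 and IL-13 receptors, measured 703 and 451 in Mi2, against 340.4 and 546 in WT, and the groups overlapped. Il13ra1, which joins Il4ra in a receptor for both IL-4 and IL-13, measured 1941 and 2129 in Mi2, against 1552 and 1154 in WT. These groups did not overlap, and the log2 change of 0.60 was not called (SE 0.218, adjusted p = 0.0777). The lymphocyte chains Il2rb, Il9r and Il21r were at or near 0 throughout, Il2rb with at most 6.81 in any epidermal library.

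Il3ra, the IL-3 receptor alpha chain, rose: it measured 23.9 and 30.0 in Mi2 epidermis, against 2.98 and 5.08 in WT epidermis (log2 change 2.50, SE 0.554, adjusted p = 0.0179). The groups were far apart, although the WT values rest on few reads. Il3ra reached the level needed for a test only through the Mi2 libraries. Il5ra, its relative for IL-5, was at 0 in all 4 epidermal libraries. Marker genes of cells that could carry Il2rg or Il3ra into the sort were set beside them. The summed T lymphocyte markers were 0 and 4.09 in Mi2, against 11.9 and 8.71 in WT, with 4 of 7 at 0 in every library. Of 6 mast cell and basophil markers 5 were at 0 in every library. The summed B cell markers were 14.6 and 17.7 in Mi2, against 3.97 and 2.90 in WT, with none of the 7 at 0 throughout. For Langerhans and dendritic cells the sums were 1440 and 1737 in Mi2, against 482 and 524 in WT. Epcam and Cd74 carried most of that list, and both were called higher (limma adjusted p = 0.00184 and 0.0192). The Langerhans gene Cd207 itself measured 3.98 and 15.0 in Mi2, against 14.9 and 1.45 in WT. Dendritic epidermal T cell markers summed to 6.63 and 6.81 in Mi2, against 13.9 and 21.8 in WT. Neutrophil and macrophage markers summed to 94.2 and 112 in Mi2, against 79.4 and 326 in WT, where Lyz2 was at 182 in WT replicate 2. The part of such cells in the rise of Il2rg and Il3ra was not tested. In bulk samples fewer cells of a type and less RNA per cell cannot be told apart.

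In the gp130 family, Il6ra, the IL-6 receptor alpha chain, measured 978 and 906 in Mi2, against 1540 and 1533 in WT. The fall was small and the replicates agreed closely (log2 change −0.71, SE 0.182, adjusted p = 0.0288). Its signalling partner Il6st measured 910 and 1518 in Mi2, against 1392 and 2293 in WT, and the groups overlapped (log2 change −0.60, adjusted p = 0.202). Il11ra2 measured 99.5 and 272 in Mi2, against 661 and 507 in WT (log2 change −1.81, SE 0.440, adjusted p = 0.0241). Without Mi2 replicate 1 the log2 change was −1.08, and without Mi2 replicate 2 it was −2.53. Il11ra2 is a near copy of Il11ra1, the IL-11 receptor chain, and reads may be split between them, so its value is uncertain. Il11ra1 itself measured 150 and 324 in Mi2, against 215 and 250 in WT, and was not called. Il31ra, the IL-31 receptor chain, measured 18.6 and 16.3 in Mi2, against 0.992 and 5.81 in WT, and was not called at this depth (log2 change 2.32, SE 0.766, adjusted p = 0.0601). Of the 5 chains of this family tested, 2 fell, also with edgeR and DESeq2, and 3 were not called by limma (40% called, beside 28.2% of all genes).

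Of the remaining chains, Il12rb2, an IL-12 receptor chain, measured 515 and 1816 in Mi2 epidermis, against 554 and 764 in WT epidermis. Mi2 replicate 2 stood above the other libraries. Il1rl2, the IL-36 receptor chain, measured 543 and 534 in Mi2, against 416 and 449 in WT, and was not called (log2 change 0.32, adjusted p = 0.234). Il15ra, the IL-15 receptor alpha chain, spanned 105 to 193 in Mi2 and 139 to 178 in WT.

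The epidermal calls leaned on both WT libraries, as did calls over all genes, which fell with either of them left out. Of the 7 calls, only those of Il20ra and Il2rg held in both of these fits. The log2 change of Il17rb was −3.19 without WT replicate 1 and −3.44 without WT replicate 2. That of Il3ra was 2.19 and 2.80 in the same fits. Il22ra1 also lost its call with DESeq2 (adjusted p = 0.0793), with TMM scaling (0.0517), without mitochondrially encoded genes (0.107) and without Mi2 replicate 2 (0.105).

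**Figure D2:**
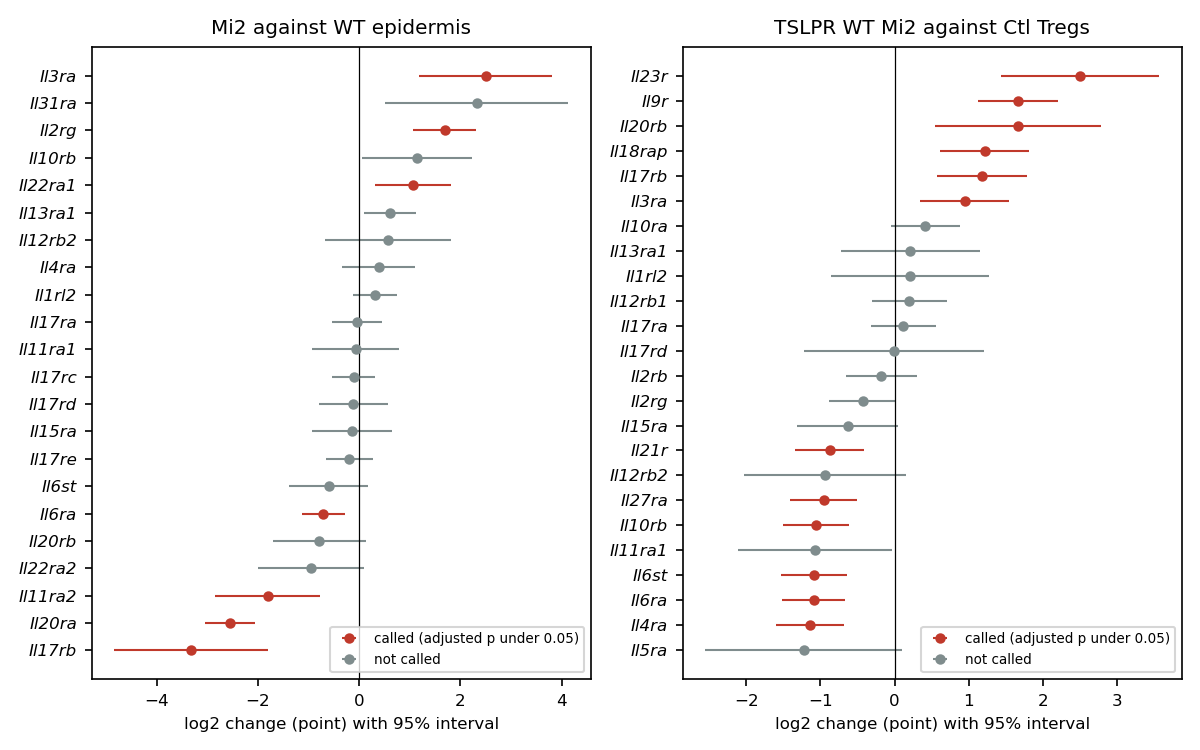
Fitted log2 changes (points) with 95% intervals (lines) of the tested receptor chains in Mi2 against WT epidermis (left) and in TSLPR WT Mi2 against Ctl Tregs (right), red where called. Il17rb lies at −3.31 in the left panel and at 1.18 in the right one.

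The second comparison asks which receptor chains differ in Tregs of Mi2 mice that carry TSLPR. In TSLPR WT Mi2 Tregs the chains Il9r, Il23r, Il17rb, Il18rap, Il3ra and Il20rb rose, and Il4ra, Il21r, Il6ra, Il6st, Il27ra and Il10rb fell. The falls were alike in size, with log2 changes between −1.14 and −0.88. Of 24 chains tested, 12 were called, 6 in each direction (50% of those tested). Over all 12206 genes tested 27.7% were called, with 14.7% higher and 13% lower. The median log2 change of the 24 was −0.094, beside −0.0083 over all genes. The risers had mean levels between 20.9 and 551 in Ctl Tregs, and the 6 that fell had means of at least 1978 there.

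**Figure D3:**
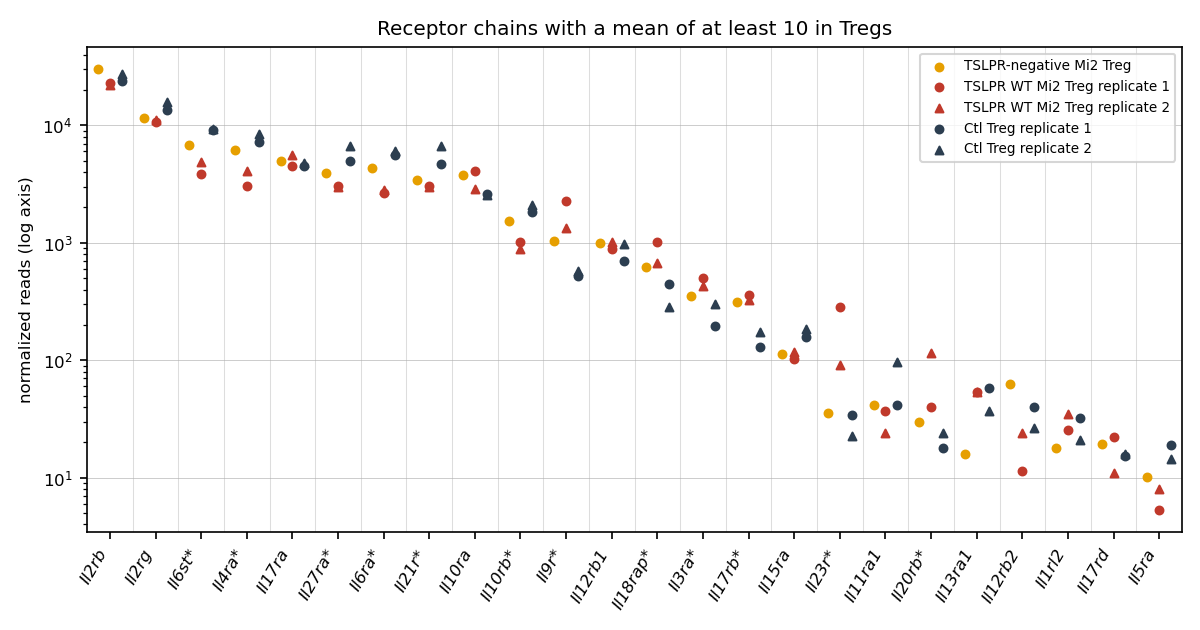
Normalized reads of the 24 tested receptor chains in Tregs on a log axis, ordered by mean level, with the TSLPR-negative library left, TSLPR WT Mi2 libraries in the middle and Ctl libraries right of each name, and an asterisk at chains called in TSLPR WT Mi2 against Ctl. Il2rb and Il2rg lead, with no library below 10697, and the chains that rose stand in the middle and lower part of the range.

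Among gamma chain receptors, Il9r, the IL-9 receptor chain (chr11:32088997-32100279, mm9, minus strand), measured 2261 and 1345 in TSLPR WT Mi2 Tregs, against 522 and 580 in Ctl Tregs. Both TSLPR WT Mi2 libraries lay above the Ctl libraries, and they differed from each other more than the Ctl libraries did (log2 change 1.66, SE 0.254, limma adjusted p = 0.000249). Il4ra (chr7:132695796-132722988, mm9, plus strand) measured 3055 and 4055 in TSLPR WT Mi2, against 7183 and 8402 in Ctl (log2 change −1.14, SE 0.215, adjusted p = 0.00127). Il21r, the IL-21 receptor chain, measured 3077 and 3017 in TSLPR WT Mi2, against 4677 and 6684 in Ctl (log2 change −0.88, SE 0.218, adjusted p = 0.00812). Neither pair of groups overlapped. The chains of the IL-2 receptor were not called. Il2rb measured 23098 and 22035 in TSLPR WT Mi2, against 23692 and 27539 in Ctl, with a 95% interval of the log2 change from −0.66 to 0.30. Il2rg measured 10697 and 11095 in TSLPR WT Mi2, against 13517 and 15888 in Ctl. Its groups did not overlap, and its interval ran from −0.88 to 0.02 (adjusted p = 0.148). Il15ra was not called either (log2 change −0.63, adjusted p = 0.159).

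Of the gp130 family, 3 of 4 tested chains fell and none rose (75% called, beside 27.7% of all genes). Il31ra, too low to test, measured 15.9 and 12.0 in TSLPR WT Mi2 Tregs, against 1.18 and 1.60 in Ctl Tregs. Il6ra (chr3:89673246-89717084, mm9, minus strand) measured 2637 and 2844 in TSLPR WT Mi2 Tregs, against 5623 and 6051 in Ctl Tregs (log2 change −1.09, SE 0.198, adjusted p = 0.000944). Il6st (chr13:113254278-113297068, mm9, plus strand) measured 3831 and 4902 in TSLPR WT Mi2, against 9115 and 9314 in Ctl (log2 change −1.09, SE 0.209, adjusted p = 0.00146). Il27ra, the IL-27 receptor chain, measured 3025 and 2969 in TSLPR WT Mi2, against 4995 and 6746 in Ctl (log2 change −0.95, SE 0.212, adjusted p = 0.00396). In all 3 the TSLPR WT Mi2 libraries lay below both Ctl libraries, and Il6ra was thus called lower in both tissues. Il11ra1 measured 37.0 and 23.9 in TSLPR WT Mi2, against 41.4 and 97.0 in Ctl, and was not called (adjusted p = 0.118).

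The IL-23 receptor chain Il23r (chr6:67372926-67441849, mm9, minus strand) measured 285 and 91.6 in TSLPR WT Mi2 Tregs, against 34.3 and 22.5 in Ctl Tregs. The spread between the TSLPR WT Mi2 libraries was wide (log2 change 2.50, SE 0.499, adjusted p = 0.00191). Without TSLPR WT Mi2 replicate 1 the log2 change was 1.69, below that of Il20rb at 2.41, and without replicate 2 it was 3.31. Il12rb1, which pairs with Il23r and with Il12rb2, measured 886 and 1012 in TSLPR WT Mi2, against 693 and 983 in Ctl, and the groups overlapped. Il12rb2 was low, at 11.5 and 23.9 in TSLPR WT Mi2, against 40.2 and 26.5 in Ctl, and was not called (log2 change −0.93, adjusted p = 0.192).

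Il17rb measured 359 and 327 in TSLPR WT Mi2 Tregs, against 130 and 174 in Ctl Tregs (log2 change 1.18, SE 0.284, adjusted p = 0.00647). The replicates of each group were close and the groups apart. Il17rb was thus called in both tissues, lower in Mi2 epidermis and higher in TSLPR WT Mi2 Tregs. The difference between the tissues was not tested, since the tables were normalized separately. Il17ra measured 4544 and 5565 in TSLPR WT Mi2, against 4492 and 4805 in Ctl, with an interval of the log2 change from −0.32 to 0.55. Il18rap, the accessory chain of the IL-18 receptor, measured 1010 and 672 in TSLPR WT Mi2, against 443 and 285 in Ctl (log2 change 1.21, SE 0.280, adjusted p = 0.00517). Both TSLPR WT Mi2 libraries were above both Ctl libraries.

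Il3ra measured 506 and 427 in TSLPR WT Mi2 Tregs, against 195 and 298 in Ctl Tregs (log2 change 0.94, SE 0.281, adjusted p = 0.0216), so it was called higher in both tissues. Of class II chains, Il10rb measured 1009 and 893 in TSLPR WT Mi2, against 1847 and 2109 in Ctl (log2 change −1.06, SE 0.209, adjusted p = 0.00182). Il10ra, its partner in the IL-10 receptor, measured 4075 and 2899 in TSLPR WT Mi2, against 2594 and 2571 in Ctl, and was not called (log2 change 0.41, SE 0.216, adjusted p = 0.172). Its groups nevertheless did not overlap. Il20rb measured 39.7 and 114 in TSLPR WT Mi2, against 17.7 and 24.1 in Ctl (log2 change 1.66, SE 0.524, adjusted p = 0.0291), with TSLPR WT Mi2 replicate 2 far above the other libraries.

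**Figure D4:**
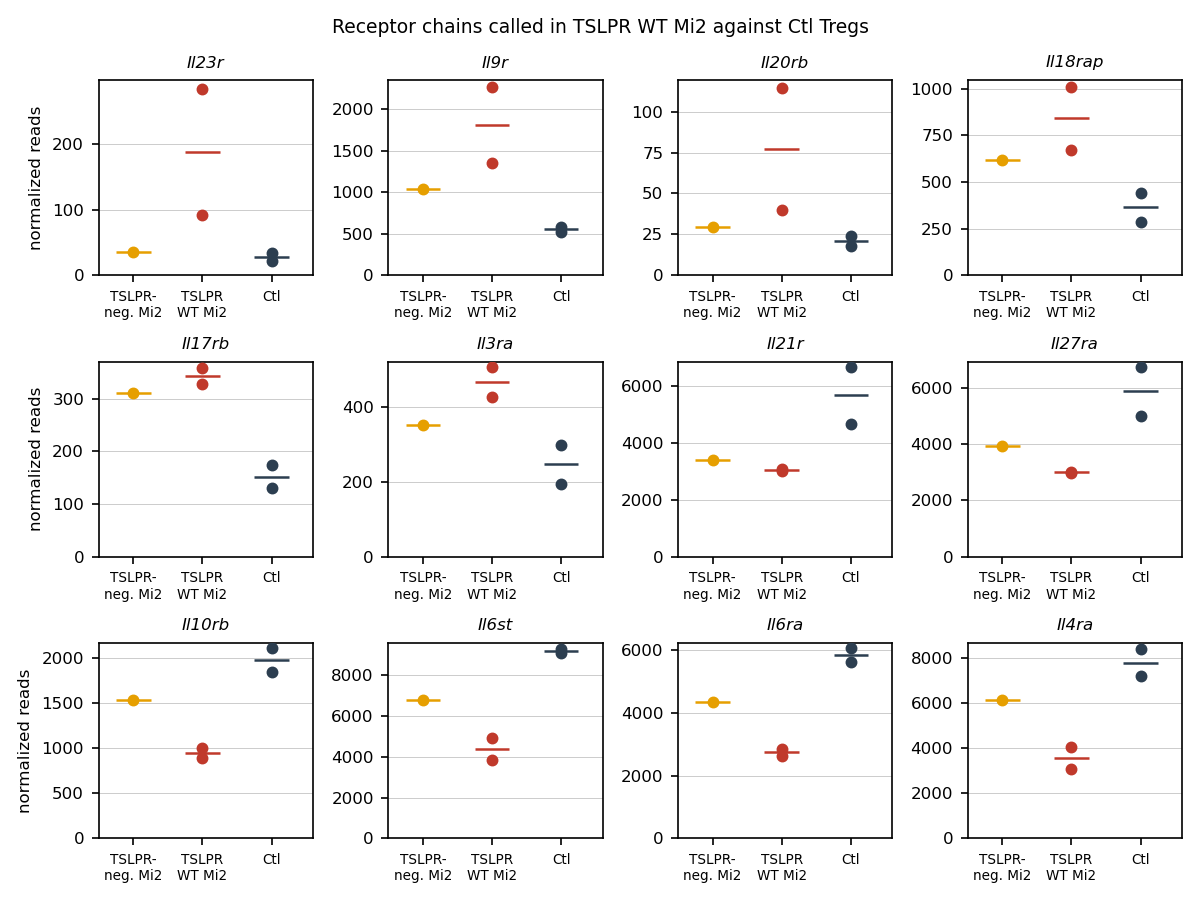
Normalized reads of the 12 chains called in TSLPR WT Mi2 against Ctl Tregs, 1 point per library and a line at each group's mean, with the TSLPR-negative library left, TSLPR WT Mi2 in the middle and Ctl right. In all 12 panels the TSLPR-negative point lies between the points of the other groups, for Il23r at 35.5 just above the higher Ctl library at 34.3.

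Markers of other cells moved with the Treg groups. All 7 B cell markers were called lower in TSLPR WT Mi2 Tregs, with sums of 1140 and 1352, against 5795 and 2833 in Ctl Tregs. The B cell sum was 1163 in the TSLPR-negative library. Markers of natural killer and innate lymphoid cells summed to 4525 and 3798 in TSLPR WT Mi2, against 1987 and 1039 in Ctl. Rora carried this sum, at 4501 and 3741 in TSLPR WT Mi2, against 1864 and 897 in Ctl. The rest of that list was lower. Eomes measured 17.6 and 49.8 in TSLPR WT Mi2, against 103 and 123 in Ctl, and was called (log2 change −1.88, limma adjusted p = 0.00844). Klrb1c measured 3.53 and 3.98 in TSLPR WT Mi2, against 9.47 and 16.0 in Ctl. Ncr1 measured 2.65 and 2.99 in TSLPR WT Mi2, against 10.7 and 3.21 in Ctl. Neutrophil and macrophage markers summed to 722 and 791 in TSLPR WT Mi2, against 460 and 228 in Ctl. Itgam carried most of this, at 652.7 and 546.5 in TSLPR WT Mi2, against 218 and 79.4 in Ctl (log2 change 2.17, limma adjusted p = 0.000703). Lyz2 and Csf1r, also tested, were not called. In the remaining lists of other cells, Cd8a, Cd7, Cd74, Pecam1 and Pmel were called lower and Col1a1 higher. The part of such cells in the rising and falling chains was not tested.

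With each library left out in turn, limma called 11 chains each time. Il20rb was not called without Ctl replicate 1 (adjusted p = 0.114) or without TSLPR WT Mi2 replicate 2 (log2 change 0.91, adjusted p = 0.365), Il3ra without Ctl replicate 1 (0.163) or TSLPR WT Mi2 replicate 1 (0.0892), and Il21r without Ctl replicate 2 (0.0654), while Il11ra1 was called lower without Ctl replicate 1 (0.0430). With no filter on low values limma called 0 of the 12 and 0 of all 16831 genes, with 5043 at an unadjusted p under 0.05, while edgeR and DESeq2 on recovered reads called the same 12 chains as the filtered limma fit.

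The TSLPR-negative library from Mi2 mice was then set against each of the other Treg groups. These comparisons share libraries with the one above, so they are not independent of it. Against TSLPR WT Mi2 Tregs, limma called 0 of the 24 chains (0.942% of all genes were called, 0.737% higher and 0.205% lower), and 8 had an unadjusted p under 0.05, beside 11.9% of all genes. edgeR called 0 and DESeq2 called 1, Il23r (log2 change −2.46, adjusted p = 0.0287). Il23r measured 35.5 in the TSLPR-negative library, against 285 and 91.6 in TSLPR WT Mi2 Tregs, and lay next to the Ctl level (limma log2 change −2.16, SE 0.611, adjusted p = 0.124). The other 7 at an unadjusted p under 0.05 were Il12rb2, Il4ra, Il6ra, Il10rb and Il6st, each higher, and Il13ra1 and Il9r, each lower in the TSLPR-negative library. Without TSLPR WT Mi2 replicate 2, 1 library was set against 1, which leaves no spread within either group. The log2 changes were then −2.97 for Il23r and 2.37 for Il12rb2.

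Il4ra measured 6123 in the TSLPR-negative library, against 3055 and 4055 in TSLPR WT Mi2 Tregs (log2 change 0.80, SE 0.263, adjusted p = 0.192). Il12rb2 measured 63.3 in the TSLPR-negative library, against 11.5 and 23.9 in TSLPR WT Mi2 Tregs, and it was also above both Ctl libraries. Il13ra1 measured 16.0 in the TSLPR-negative library, against 53.8 and 53.8 in TSLPR WT Mi2 Tregs and 58.0 and 36.9 in Ctl Tregs. It was lowest in the TSLPR-negative library (log2 change −1.68, SE 0.540, adjusted p = 0.177 against TSLPR WT Mi2). Il9r measured 1040 there, below both TSLPR WT Mi2 libraries and above both Ctl libraries. Il2rb was highest of the 5 libraries in the TSLPR-negative one, at 30229, and was not called. Of the other abundant or called chains, the TSLPR-negative library had 11488 for Il2rg, 5021 for Il17ra, 6777 for Il6st, 4348 for Il6ra and 3919 for Il27ra. It had 1534 for Il10rb, 620 for Il18rap, 351 for Il3ra and 29.6 for Il20rb. Il2rg and Il17ra, like the called chains, lay within the range of the other 4 libraries.

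Against Ctl Tregs, limma called 0 of the 24 chains in the TSLPR-negative library (3.15% of all genes were called, 2.63% higher and 0.516% lower). edgeR and DESeq2 called 0 as well, and 6 had an unadjusted p under 0.05 in limma, beside 13.3% of all genes. Of these Il17rb, Il9r and Il18rap were higher and Il13ra1, Il21r and Il27ra lower. Il17rb measured 311 in the TSLPR-negative library, against 130 and 174 in Ctl Tregs, and was near the TSLPR WT Mi2 level (log2 change 1.04, SE 0.347, adjusted p = 0.151). Il21r measured 3404 in the TSLPR-negative library, against 4677 and 6684 in Ctl Tregs (log2 change −0.72, SE 0.267, adjusted p = 0.218). Without Ctl replicate 1 its log2 change was −0.97, again with 1 library against 1.

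For all 12 chains called in TSLPR WT Mi2 against Ctl Tregs, the TSLPR-negative value lay between the libraries of the other groups. Over all genes called in that comparison the same held for 2595 of 3383, or 76.7%. How far it lay from either side varied: Il23r and Il20rb were near the Ctl level, and Il17rb and Il21r near the TSLPR WT Mi2 level. A single library cannot give the spread of these positions.

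Genes that work with the receptors were taken from lists chosen by function. Of 40 ligand genes 9 were tested in epidermis, and 5 rose and 1 fell (66.7%, beside 28.2% of all genes). Their median log2 change was 1.47, beside −0.029 over all genes. Il24, a ligand of the receptor that contains Il20ra, was at 0 in both WT libraries and measured 179 and 12.3 in Mi2 epidermis, at least 37.1-fold higher against a floor of 3 reads per library (limma adjusted p = 0.0155). That bound rests on Mi2 replicate 1, and without it the rise was at least 4.76-fold. Il17d measured 51.7 and 43.6 in Mi2, against 5.95 and 5.08 in WT (log2 change 2.90, SE 0.452, adjusted p = 0.00596). Lif, a gp130 cytokine, measured 77.0 and 70.8 in Mi2, against 8.93 and 10.2 in WT (log2 change 2.83, adjusted p = 0.00376). Both Mi2 values of these genes exceeded both WT values. Il24 and Il17d were below 10 in both WT libraries, so they reached the level needed for a test only through Mi2 epidermis. Ligands low in both groups were not tested, so the share called and the median may be raised by this filter. Il1f5, the IL-36 receptor antagonist, fell by 1.37 on the log2 scale. In Tregs 6 ligands were tested and 2 were called (33.3%, near the 27.7% of all genes). Ebi3, a subunit of IL-27 and IL-35, rose (log2 change 1.09, adjusted p = 0.00464) while Clcf1 fell (log2 change −1.45, adjusted p = 0.00116).

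Of 10 partner chains outside the rule, 8 were tested in epidermis, where Cntfr and Ifnar2 rose and 6 were not called by limma (25% called, near the 28.2% of all genes). Cntfr, a receptor chain of the gp130 group, measured 334 and 424 in Mi2, against 5.95 and 1.45 in WT (log2 change 6.51, SE 0.526, adjusted p = 0.000844). Both Mi2 libraries were far above both WT libraries, and Cntfr reached the level needed for a test only through them. In Tregs 8 were tested and 3 fell (37.5%, beside 27.7% of all genes called). These were the interferon receptor chains Ifngr2, Ifnar2 and Ifnar1, with log2 changes of −1.01, −0.97 and −0.75 and adjusted p of 0.00357, 0.00378 and 0.0113 (limma).

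Janus kinases and STAT factors were counted in each tissue. In epidermis 9 of 10 were tested, with 1 higher and 4 lower (55.6% called, beside 28.2% of all genes). Stat3, the main factor downstream of gp130 and IL-22 receptors, measured 2155 and 2204 in Mi2, against 970 and 1191 in WT (log2 change 1.02, SE 0.199, adjusted p = 0.0120). Stat5a, Stat5b and Stat6 fell, with log2 changes of −1.14, −1.16 and −0.99. Tyk2, a kinase of IL-12 and class II receptors, fell with a log2 change of −1.59, close to the threshold (adjusted p = 0.0459). In Tregs all 10 were tested, and 5 fell in TSLPR WT Mi2 while 5 were not called (50% called, beside 27.7% of all genes). Stat4, which follows IL-12, measured 869 and 891 in TSLPR WT Mi2 Tregs, against 2353 and 2111 in Ctl Tregs (log2 change −1.34, SE 0.205, adjusted p = 0.000249). Stat2 and Stat6 fell with log2 changes of −1.26 and −1.01. The median log2 change of the 10 was −0.55, beside −0.0083 over all genes. Against TSLPR WT Mi2, none of the 10 was called by limma in the TSLPR-negative library, where 0.942% of all genes were called. At an unadjusted p under 0.05 there were 3, all higher, beside 11.9% of all genes.

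**Figure D5:**
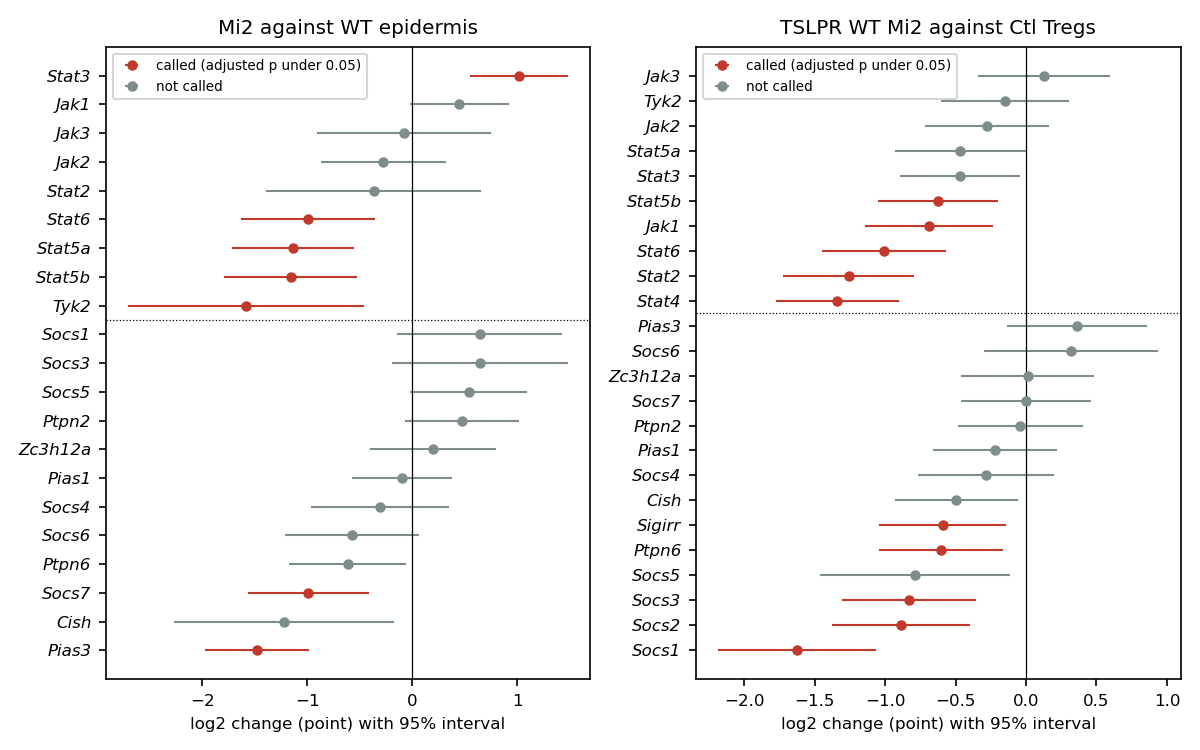
Fitted log2 changes (points) with 95% intervals (lines) of Janus kinases and STAT factors (above the dotted line) and negative regulators (below it) in Mi2 against WT epidermis (left) and TSLPR WT Mi2 against Ctl Tregs (right), red where called. In the right panel all called genes lie left of 0, and in the left panel Stat3 is the one called gene to the right of it.

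Negative regulators of cytokine signalling were tested for 12 of 14 genes in epidermis, with 0 higher and 2 lower (Pias3 and Socs7), and for 14 in Tregs, with 0 higher and 5 lower. The shares called, 16.7% in epidermis and 35.7% in Tregs, stand beside 28.2% and 27.7% of all genes, the first below and the second near them. Socs1, an inhibitor of Janus kinases, measured 365 and 443 in TSLPR WT Mi2 Tregs, against 967 and 1597 in Ctl Tregs (log2 change −1.62, SE 0.262, adjusted p = 0.000385). Socs2 and Socs3 fell with log2 changes of −0.89 and −0.83. The TSLPR-negative library had 994 for Socs1, near the lower Ctl library.

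Among 11 genes listed with the adaptors of IL-17 and IL-1 family receptors, all were tested in epidermis, with 2 higher and 4 lower (54.5% called, beside 28.2% of all genes). Traf5, an IL-17 receptor adaptor, measured 3.98 and 6.81 in Mi2, against 173 and 155 in WT (log2 change −4.72, SE 0.398, adjusted p = 0.000892). Traf3ip2, the adaptor known as Act1 that binds IL-17 receptors, fell by 0.96 on the log2 scale (adjusted p = 0.0228). In Tregs 2 of 11 were called, Irak2 and Nfkbiz, both lower (18.2%, below the 27.7% of all genes). Of 12 genes known to respond to IL-17 or IL-22 in keratinocytes, 4 were tested in epidermis and 8 lay below the level needed. Lcn2, an antimicrobial lipocalin, and Nfkbiz rose (50% of those tested, beside 28.2% of all genes). Nfkbiz is also on the adaptor list and is counted in both. Lcn2 reached the level needed for a test only through Mi2 epidermis, so this share may be raised by the filter. Lcn2 measured 91.6 and 196 in Mi2, against 0 and 1.45 in WT, or 213 reads against 2, a ratio of 171 with a 95% counting interval from 46.7 to 1419 (limma adjusted p = 0.00151).

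The 10 genes listed as driven by STAT5 in T cells were all tested in Tregs, where 0 rose and 4 fell in TSLPR WT Mi2 (40% called, beside 27.7% of all genes). These 4 were Socs1, Socs2, Bcl2 and Myc, of which Socs1 and Socs2 were already counted among the negative regulators. Bcl2, a survival factor, measured 995 and 1923 in TSLPR WT Mi2 Tregs, against 10038 and 6422 in Ctl Tregs (log2 change −2.54, SE 0.289, adjusted p = 2.56e-05). In the TSLPR-negative library it measured 6367, above both TSLPR WT Mi2 libraries (log2 change 2.20, SE 0.354, adjusted p = 0.0129) and next to the lower Ctl library. It was the 1 gene of these 10 called between the TSLPR-negative and TSLPR WT Mi2 groups, beside 0.942% of all genes.

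Calls in these lists depended on single libraries, as did calls over all genes. Those over all genes fell too with either WT library left out, and with any Ctl or TSLPR WT Mi2 Treg library left out. In epidermis 25 genes of the lists were called, and 8 of them without WT replicate 1, 10 without WT replicate 2, 20 without Mi2 replicate 1 and 22 without Mi2 replicate 2. Of the 5 Janus kinases and STAT factors called there, 0 were called by limma without WT replicate 1 and 1 without WT replicate 2. Of the 6 adaptors 1 was called without either WT library. In Tregs 19 genes of the lists were called, and 12 to 15 of them with a library left out. Of the 5 negative regulators called there, 1 was called without TSLPR WT Mi2 replicate 2 and 2 without Ctl replicate 2.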

How the data were processed

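Both tables hold the signal that the authors deposited: reads per gene (epidermis) or per RefSeq transcript (Tregs), multiplied by 1 factor per library. Every value was a whole multiple of 1 read within 0.05 reads, so reads were recovered from these steps. Per the submitters' processing notes, bcl2fastq 1.8.3, STAR and DESeq2 were used, with builds mm9 and mm10. Per the file headers, HOMER counted Treg reads in exons on mm9, in a command of 7 libraries of which the table holds 5. Not given in the sources used here are the epidermal counting program, the strand settings and which kit served which sample. Without strand, reads of a gene and of an overlapping or antisense gene cannot be told apart.

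A symbol with several Treg transcripts was represented by the one with the highest mean, which mattered for 5 of the 34 genes. limma 3.58.1 (R 4.3.3) with an intensity trend was run on log2(value + 1), so changes of low genes are understated. Genes with a mean of at least 10 were tested, two-sided, and called where p, adjusted by Benjamini-Hochberg over all genes, was under 0.05. That mean was taken over all libraries of a fit, so a gene could pass through its higher group alone. The 4 epidermal libraries formed 1 fit and the 5 Treg libraries another, which assumes that the single TSLPR-negative library varies as the others do. edgeR 4.0.16 and DESeq2 1.42.0 on recovered reads were alternatives. The scripts were tested on simulated data.

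Exon lengths for epidermal genes came from an annotation of another build and served only levels per kilobase. Values in every sample were given for chains called in a comparison and for the most abundant 8 of each tissue. From each list the genes with the smallest p were named. Some listed genes are not reported here and are left out of the counts. The members and gene lists were chosen with earlier results of these data known. Counting intervals (95%) and the floor of 3 reads cover counting error only.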

Additional observations from a re-analysis of the deposited data

How the results depend on the processing

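The counts of called chains moved by more than 1.5 times in few settings. In epidermis, 7 became 4 when limma was run without the intensity trend, and between 2 and 8 with a library left out. The numbered replicates were not shown to pair (correlation of deviations 0.123 in epidermis and 0.0917 in Tregs). With 2 replicates per group both pairs give the same correlation, so each tissue holds 1 value. With a replicate block limma called 9 chains in epidermis, adding Il31ra (adjusted p = 0.0471) and Il6st (0.0469), and 12 in Tregs. Calls over all genes rose with the block too, from 4085 to 5170 in epidermis and from 3383 to 4361 in TSLPR WT Mi2 against Ctl Tregs. No paired analysis was possible for the TSLPR-negative comparisons because that library has no replicate number. For TSLPR WT Mi2 against Ctl Tregs 12 became 0 with no filter, where 205 genes had no variance within groups and the prior degrees of freedom fell to 1.74, against 12.5 with the filter. It became 10 without the trend, and 11 with any library left out. Without the trend the calls lost were Il11ra2 (adjusted p = 0.0693), Il6ra (0.0803) and Il22ra1 (0.0613) in epidermis, and Il20rb (0.0610) and Il21r (0.0617), as well as Il3ra (0.0642), in Tregs, where Il5ra was gained (0.0285), and Il11ra2 (0.0503) and Il22ra1 (0.0725) were lost in epidermis with no filter. For TSLPR-negative against TSLPR WT Mi2 the count was 1 with DESeq2. For TSLPR-negative Mi2 against Ctl it was 0 in every setting run with both Ctl libraries. With a library of the compared group left out, 1 library stands against 1, so those counts are not given. The fit without mitochondrially encoded genes also rescaled each library to the total of its remaining reads, in place of the authors' factors. Relative to those factors, the log2 scale moved by −0.28 and −0.15 in the Mi2 libraries, and by −0.022 and 0.065 in the WT libraries. The median log2 change of all epidermal genes in that fit was −0.27, a value that includes this change of scale. The cause of the changes in the counts of called chains was not tested.

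No chain called in the 2 larger comparisons changed direction in any setting run. Uncalled chains near 0 did. Il11ra1 in epidermis was at 0.029 with edgeR and 0.034 with DESeq2, and Il17rd in TSLPR WT Mi2 against Ctl Tregs at 0.0044 with pseudocount 5, 0.075 with edgeR and 0.063 with DESeq2. Il15ra in TSLPR-negative against TSLPR WT Mi2 was at −0.0094 with DESeq2. With a library left out, the ranges were, in epidermis, −0.63 to 0.48 for Il11ra1, −0.34 to 1.48 for Il12rb2, −0.58 to 0.30 for Il15ra, −0.15 to 0.057 for Il17ra and −0.35 to 0.12 for Il17rd. They were, in TSLPR WT Mi2 against Ctl Tregs, −0.054 to 0.45 for Il12rb1, −0.11 to 0.53 for Il13ra1, −0.032 to 0.26 for Il17ra, −0.48 to 0.46 for Il17rd and −0.094 to 0.50 for Il1rl2. They were, in TSLPR-negative against TSLPR WT Mi2 Tregs, −0.12 to 0.37 for Il10ra, −0.029 to 0.16 for Il12rb1, −0.066 to 0.16 for Il15ra, −0.15 to 0.14 for Il17ra and −0.17 to 0.77 for Il17rd.

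Depth limits the low chains: Il31ra in epidermis and Il12rb2, Il13ra1 and Il5ra in Tregs rest on few reads, and with 2 libraries per group at most no test for outlying libraries applied.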

Other observations

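Several of these genes are neighbours in the genome. Il4ra and Il21r lie 24.0 kb apart on chromosome 7 (mm9) and both fell in TSLPR WT Mi2 Tregs. Il6st and Il31ra lie 15.9 kb apart on chromosome 13. In Tregs Il6st fell, whereas Il31ra, below the level needed for a test, measured 15.9 and 12.0 in TSLPR WT Mi2, against 1.18 and 1.60 in Ctl, or 30 reads against 3 (ratio 9.78, 95% counting interval 3.04 to 50.1). The TSLPR-negative library had 7.60. Il12rb2 and Il23r lie 46.8 kb apart on chromosome 6, and of them Il23r was called in Tregs. Il22ra2 and Il20ra lie 77.9 kb apart on chromosome 10. Il20ra fell in Mi2 epidermis, and Il22ra2 was called there only without Mi2 replicate 2 (log2 change −1.63, adjusted p = 0.0277). Il17re and Il17rc, 0.704 kb apart on chromosome 6, were both uncalled in epidermis.

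Il28ra, the interferon lambda receptor chain that pairs with Il10rb, measured 43.8 and 89.9 in Mi2 epidermis, against 189 and 211 in WT epidermis (log2 change −1.65, SE 0.363, limma adjusted p = 0.0174). In Tregs, where the table calls it Ifnlr1, it measured 3.38 in the TSLPR-negative library, 1.76 and 1 in TSLPR WT Mi2 Tregs, and 5.92 and 3.21 in Ctl Tregs.

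Of the 3 tested chains that make up the receptors for IL-20 and IL-24 in epidermis, Il20ra fell, Il22ra1 rose and Il20rb was not called. Il20rb was called lower without Mi2 replicate 2 (log2 change −1.43, adjusted p = 0.00881), and Il12rb2 higher without Mi2 replicate 1 (log2 change 1.48, adjusted p = 0.0154).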
